A study of Rattus norvegicus with 20 samples.

Results

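The cytosolic chaperonin, known as CCT or TRiC, is built from the products of 8 genes: Tcp1, Cct2, Cct3, Cct4, Cct5, Cct6a, Cct7 and Cct8. These genes were followed in femur RNA of 4 rat strains on Affymetrix Rat Genome arrays. Members were the probe sets whose annotated gene symbol was exactly one of the 8, which gave 11 of the 31042 probe sets other than controls, and 8 of the 14217 genes named there by a single symbol. Cct5, Cct6a and Cct8 had 2 probe sets each, and the brighter one, by mean log2 signal over all arrays, stands for the gene. All 11 were among the 18625 probe sets that passed a filter on low mean signals and were tested. Cct7 lies in the chromosome 4 segment that was exchanged between the strains. The other subunit genes are on chromosomes 1 (Tcp1), 2 (Cct3 and Cct5), 7 (Cct2), 11 (Cct8), 12 (Cct6a) and 14 (Cct4). The comparisons ask whether Cct7 moved with its partner subunits or with the segment in which it lies. Cct7 is also in the study's own list of genes of the segment, which was chosen on these arrays, so its strain difference is not independent evidence.

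The 20 rats were 4 weeks old, with 5 rats per strain and 1 array per rat. P.NP rats carry the NP chromosome 4 segment on the genetic background of the inbred alcohol-preferring P strain, and P rats carry their own segment on that background. NP.P rats carry the P segment on the background of the inbred alcohol-nonpreferring NP strain, and NP rats carry their own. The study asked which genes of the segment could underlie differences in bone mass and strength between these strains. No rat was labelled as treated. The congenic strains, P.NP and NP.P, were made by backcrossing and carry the whole donor segment, so a difference that follows the segment cannot be assigned to 1 gene of it. Whole femurs were taken, although the labels name the proximal femur, and the RNA came from marrow and attached tissue as well as from bone. In such bulk RNA, fewer cells of a type and less RNA per cell cannot be told apart.

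The chaperonin is a double ring with a central cavity in which newly made proteins fold at the expense of ATP. Actin and tubulin are its best known substrates, and cell cycle regulators are among the others. Each ring holds 1 copy of every subunit, in a fixed order, and each subunit binds substrates in its own way. Prefoldin and phosducin-like proteins hand substrates to the ring, and the tubulin folding cofactors take over tubulin after it is released.

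The values were MAS5 signals on a linear scale, brought by the authors to a common trimmed mean, and the median signal of an array was between 292 and 322. The 3'/5' signal ratio of GAPDH, a sign of RNA quality, was between 1.03 and 1.15, and that of beta-actin between 1.85 and 2.39. On the P and NP backgrounds the GAPDH ratio was 1.11 ± 0.03 and 1.08 ± 0.03 (SD, n = 10 each). The beta-actin ratio was 2.17 ± 0.17 and 2.13 ± 0.17. Each array had a correlation of 0.969 to 0.988 with the mean of its strain, and no array was a copy of another. Bone was well represented: the 6 tested osteoblast markers summed to signals of 283586 to 326862 in the 10 rats on the P background, and of 247954 to 332243 in the 10 on the NP background. The 5 tested skeletal muscle markers summed to 236589 to 299699 on the P background and 223826 to 338580 on the NP background. P replicate 2 stood apart in cartilage markers, with a score of -1.78 log2 relative to the mean of all arrays.

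Upstream sequences are shown for the gene in the segment (Cct7), and for the subunits with the highest (Cct6a) and the lowest (Tcp1) correlation with it over the 20 arrays. With the strain means removed, that order was different, with Cct2 highest and Cct3 lowest. Each is the 250 bases before the annotated start, 5′ to 3′ on the gene's strand, from RefSeq on the GRCr8 build. Capitals mark CCAAT in either orientation, which is read by the factor NF-Y.
Cct7, chr4:119546480-119546729, plus strand: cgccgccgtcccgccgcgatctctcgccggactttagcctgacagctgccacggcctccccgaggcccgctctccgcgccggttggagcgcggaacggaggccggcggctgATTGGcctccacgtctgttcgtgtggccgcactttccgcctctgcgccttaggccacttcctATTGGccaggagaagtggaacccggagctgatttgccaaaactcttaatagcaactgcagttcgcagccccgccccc
Cct6a, chr12:32519073-32519322, minus strand: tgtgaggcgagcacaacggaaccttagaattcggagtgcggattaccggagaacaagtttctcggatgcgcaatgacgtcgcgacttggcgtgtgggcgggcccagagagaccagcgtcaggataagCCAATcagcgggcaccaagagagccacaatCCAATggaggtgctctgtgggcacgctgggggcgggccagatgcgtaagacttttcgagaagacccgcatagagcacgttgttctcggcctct
Tcp1, chr1:50384528-50384777, minus strand: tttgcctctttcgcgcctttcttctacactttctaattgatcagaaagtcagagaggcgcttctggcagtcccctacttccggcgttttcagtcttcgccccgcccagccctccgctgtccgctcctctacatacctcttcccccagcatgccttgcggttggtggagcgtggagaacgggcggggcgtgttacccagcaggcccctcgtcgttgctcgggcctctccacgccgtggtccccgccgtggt

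CCAAT was found 2 times in the Cct7 sequence, both in reverse orientation, beginning 77 and 139 bases before the start. In Cct6a it was found 2 times in forward orientation, beginning 93 and 123 bases before the start, and in Tcp1 it was not found. Searched on both strands, 5 of the 8 genes (Cct3, Cct5, Cct6a, Cct7 and Cct8) had CCAAT in this window, beside 34.0% of 33469 promoters of the same length. The GC box GGGCGG was in 5 of 8 (Tcp1, Cct2, Cct3, Cct6a and Cct7), beside 30.5% of all. The ETS core CGGAAG was in Tcp1 and Cct2, beside 13.9% of all, and the NRF-1 element was in Cct3 alone, beside 3.75%. Neither the heat shock element GAANNTTC nor TATAAA was in any of the 8 windows, beside 7.23% and 12.9% of all. These matches are descriptions of the letters in the windows, and no binding was measured. No searched motif contains the letters of another.

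Cct7 had lower signals in both strains on the P background than in both on the NP background. The signals were 8535, 8263, 8703, 8165 and 8273 in P.NP rats. In P rats they were 8307, 7525, 7981, 8148 and 8706. NP.P rats had 9603, 9901, 9672, 10516 and 10522. NP rats had 8245, 9059, 9037, 10235 and 9767. All 5 NP.P rats and 4 of the 5 NP rats were above every rat on the P background, and NP replicate 1 lay among the P-background rats. The strain means were 8388 ± 223 in P.NP, 8134 ± 434 in P, 10043 ± 449 in NP.P and 9269 ± 763 in NP rats (SD, n = 5 each). In descending order, the strains were thus NP.P, NP, P.NP and P. Neighbours in that order overlapped, and the first and last steps did not pass the test (NP.P minus NP, 0.12 log2, adjusted p = 0.449; P.NP minus P, 0.05 log2, adjusted p = 0.949, limma).

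**Figure D1:**
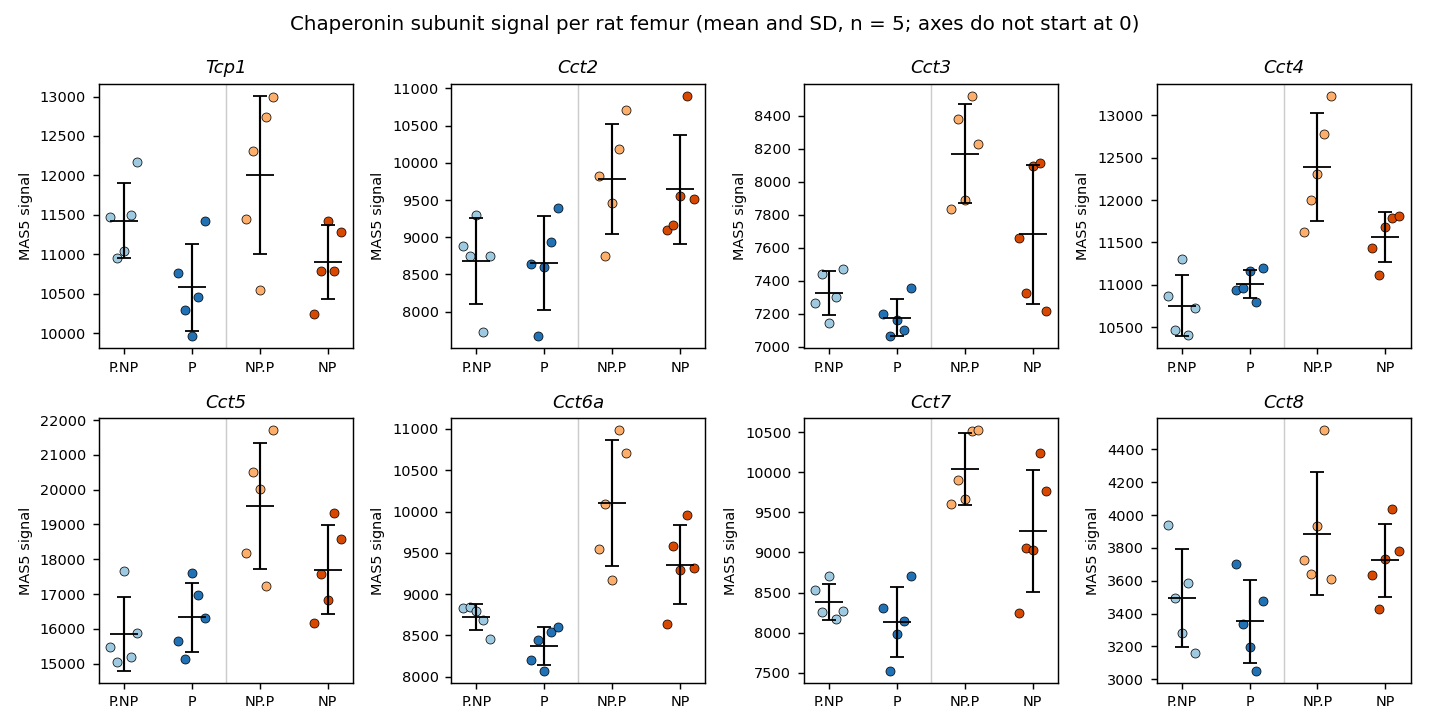
MAS5 signal (linear scale, axes not starting at 0) of each subunit gene in each rat, by strain, with 1 point per rat and bars for the mean and SD of 5. For Cct7 the P.NP and P rats lie between 7525 and 8706, and the NP.P rats between 9603 and 10522; Tcp1 shows no such step between the backgrounds.

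Averaged over the 2 segments, the Cct7 signal was 0.22 log2 lower on the P background than on the NP background (SE 0.04, 95% interval -0.32 to -0.13, adjusted p = 0.00204, limma). This corresponds to 0.857 times the level. The 10 rats on the P background had a lowest, median and highest signal of 7525, 8268 and 8706, against 8245, 9720 and 10522 in the 10 rats on the NP background. The background contrast called 22.5% of all tested probe sets, 11.3% as lower and 11.1% as higher on the P background. Of the 8 chaperonin genes, 7 were called lower and none higher, and 9 of the 11 probe sets were called. All 11 estimates were negative. The median over the 8 genes was -0.16 log2, beside 0.02 over all tested probe sets, of which 16.8% lay at or below the median of the chaperonin genes.

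Cct6a, the subunit with the next smallest adjusted p, followed the same strain pattern as Cct7. Its signals were 8834, 8839, 8797, 8692 and 8451 in P.NP rats and 8199, 8446, 8070, 8543 and 8600 in P rats. They were 9546, 10095, 9170, 10982 and 10705 in NP.P rats and 8642, 9576, 9297, 9956 and 9319 in NP rats. As with Cct7, 9 of the 10 rats on the NP background were above every rat on the P background, and the exception was NP replicate 1. The background difference was -0.18 log2 (SE 0.04, adjusted p = 0.00518, limma). The second probe set of Cct6a gave -0.21 log2 (adjusted p = 0.0974).

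Cct5, the epsilon subunit, in which a mutation causes a hereditary sensory neuropathy in humans, differed by -0.21 log2 between the backgrounds (SE 0.05, adjusted p = 0.0123). Its signals were 15492, 15035, 17675, 15199 and 15890 in P.NP rats and 15660, 15130, 17593, 16977 and 16308 in P rats. In NP.P rats they were 18167, 20498, 20027, 17234 and 21704, and in NP rats 16173, 17581, 16823, 19336 and 18592. Of the rats on the P background, 4 (P.NP replicate 3 and P replicates 3, 4 and 5) were above the lowest rat on the NP background. The second probe set of Cct5 gave -0.27 log2 (adjusted p = 0.0448).

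Cct4, the delta subunit, which is mutated in a rat strain with an early sensory neuropathy, separated the backgrounds by rank most sharply of the 8. Its signals were 10870, 10473, 11307, 10411 and 10725 in P.NP rats and 10941, 10970, 11163, 10796 and 11202 in P rats. NP.P rats had 11622, 11995, 12312, 12784 and 13230, and NP rats 11433, 11117, 11686, 11791 and 11811. Only NP replicate 2 fell below the highest rat on the P background, and 7 of the 10 P-background rats were below every NP-background rat. The difference was -0.14 log2 (SE 0.04, adjusted p = 0.0145, limma).

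Cct3, the gamma subunit, had a lowest, median and highest signal of 7064, 7231 and 7469 on the P background, against 7215, 7990 and 8521 on the NP background. The 10 rats on the P background were close together, and NP replicates 2 and 5 were the NP-background rats within their range. The background difference was -0.13 log2 (SE 0.04, adjusted p = 0.0239, limma). Cct2, the beta subunit, had 7671, 8752 and 9399 on the P background and 8749, 9532 and 10903 on the NP background. Its difference was -0.16 log2 (SE 0.05, adjusted p = 0.0409), and NP replicate 4, the highest of all, stood above the other 4 NP rats at 9103 to 9551. Cct8, the theta subunit, had 3051, 3405 and 3938 on the P background and 3429, 3729 and 4516 on the NP background. Its difference of -0.15 log2 passed the threshold closely (SE 0.06, adjusted p = 0.0703), and its second probe set did not pass (-0.11 log2, adjusted p = 0.142). The call of Cct8 was also lost in 6 of the 20 fits that left out 1 rat (without P.NP replicate 3 or 5, P replicate 3 or 4, NP.P replicate 4 or NP replicate 4), where the adjusted p reached 0.126.

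Tcp1, the alpha subunit and the first of the family to be described, was the only one of the 8 not called between the backgrounds (-0.06 log2, SE 0.05, 95% interval -0.15 to 0.04, adjusted p = 0.446, limma). Its signals were 11470, 10958, 11046, 11491 and 12167 in P.NP rats and 10764, 10293, 9961, 10456 and 11423 in P rats. In NP.P rats they were 11449, 12308, 10543, 12736 and 12991, and in NP rats 10236, 10786, 11424, 10781 and 11279. Here the 2 congenic strains had the highest means, 11426 ± 479 in P.NP and 12005 ± 1006 in NP.P rats, beside 10579 ± 553 in P and 10901 ± 471 in NP rats (SD, n = 5 each).

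**Figure D2:**
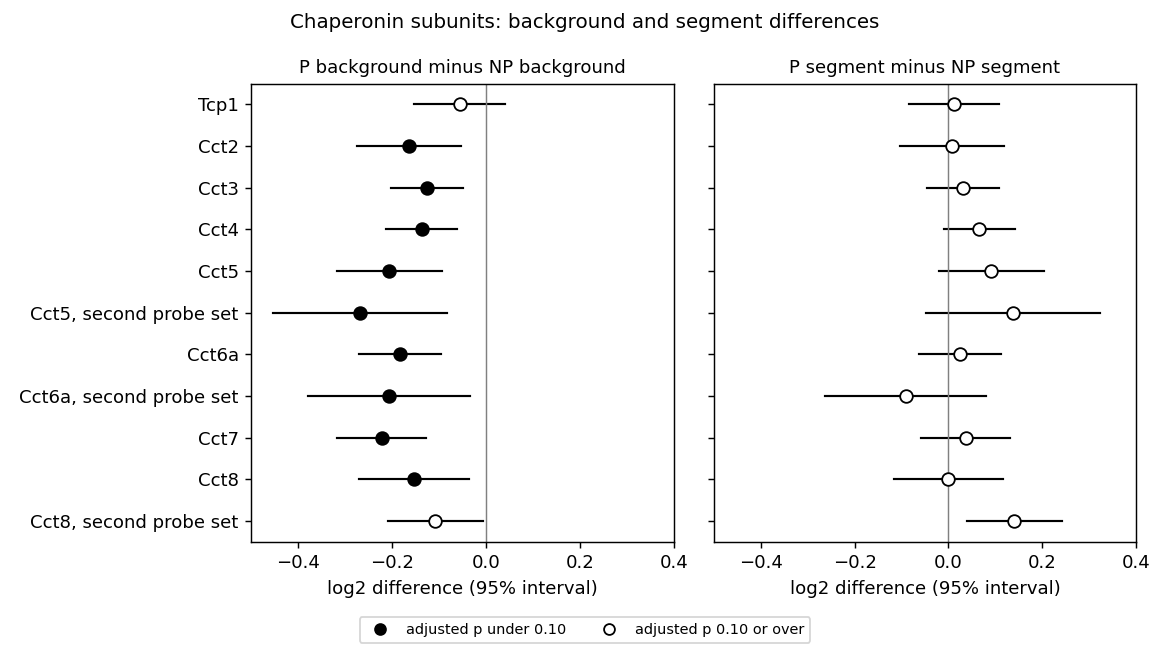
Log2 difference and 95% interval of each of the 11 probe sets, for the P minus the NP background (left) and the P minus the NP segment (right); filled points passed an adjusted p of 0.10 in limma. Of the background differences, 9 are filled and all 11 are below 0, with Cct7 at -0.22, while no segment difference is filled and Cct7 is at 0.04.

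No chaperonin gene was called for the chromosome 4 segment. Over the strains with the P segment, NP.P and P, Cct7 had a lowest, median and highest signal of 7525, 9155 and 10522, against 8165, 8619 and 10235 over the strains with the NP segment, P.NP and NP. Those ranges overlapped almost wholly. The segment effect on Cct7 was 0.04 log2 (SE 0.04, 95% interval -0.06 to 0.13, adjusted p = 0.814, limma), and 0 of the 8 genes had an unadjusted p under 0.05. The contrast called 0.886% of all tested probe sets, and 6.51% of the 384 tested in the region of the segment. For the other 7 genes, the segment effect was at most 0.09 log2, at Cct5 (adjusted p = 0.551). The second probe set of Cct8 had the largest segment effect of the 11 (0.14 log2, 95% interval 0.04 to 0.24). Its unadjusted p was 0.00913, and it did not pass after adjustment (adjusted p = 0.243, limma).

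Within the segment, the 5 genes on each side of Cct7 that had a tested probe set were, in gene order, Exoc6b, Sfxn5, Rab11fip5, Smyd5 and Pradc1 before it and Tprkb, Nat8b, Dusp11, Add2 and Fam136a after it. None of them was called for the segment. Their segment effects ran from -0.26 log2 at Exoc6b, a subunit of the exocyst (adjusted p = 0.209), to 0.23 log2 at Add2, beta adducin of the red cell membrane (adjusted p = 0.138, limma). Between backgrounds, Add2 was lower on the P background (-0.23 log2, adjusted p = 0.0178), Exoc6b was higher (0.22 log2, adjusted p = 0.0860), and the other 8 did not pass. Of the 384 tested probe sets of the region, 13.0% were called lower on the P background. The correlation of these neighbours with Cct7 over the 20 arrays ran from -0.42 at Exoc6b to 0.50 at Add2, below that of each other chaperonin subunit.

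**Figure D3:**
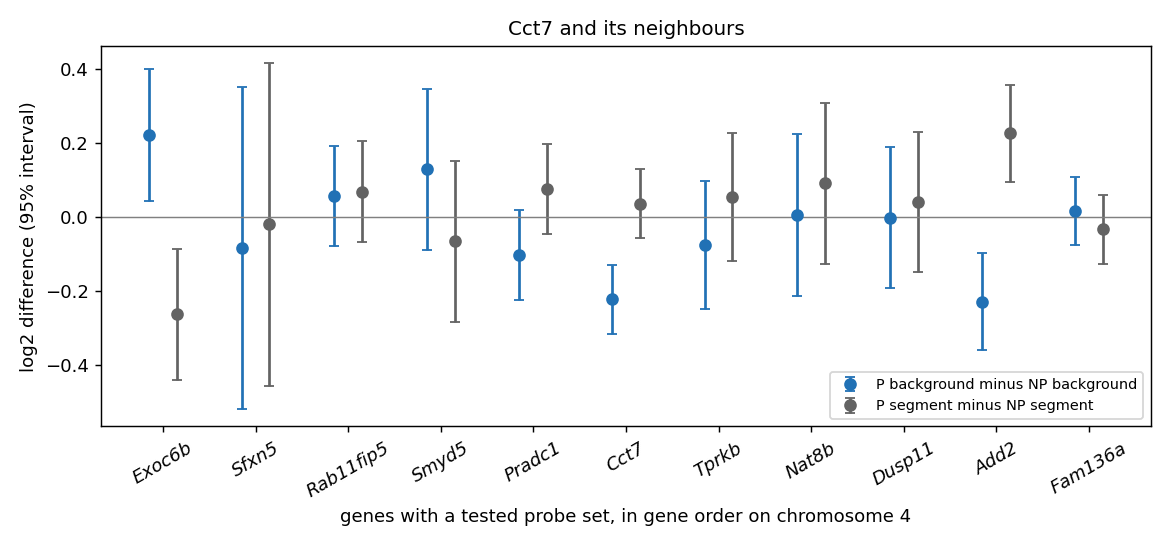
Log2 difference and 95% interval between backgrounds (blue) and between segments (grey) for Cct7 and the 5 tested genes on each side of it, in gene order on chromosome 4. Cct7 (-0.22) and Add2 (-0.23) are below 0 between backgrounds with intervals clear of 0, and Exoc6b (0.22) is above it.

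Between single strains, no chaperonin gene passed. For the inbred strains, P minus NP, all 8 differences were negative, with a median of -0.13 log2, and 3 had an unadjusted p under 0.05 (Cct7, -0.19 log2, adjusted p = 0.127; Cct6a, -0.16, adjusted p = 0.172; Cct2, -0.16, adjusted p = 0.311, limma). That contrast called 5.36% of all tested probe sets. Without NP replicate 1, the NP rat that lay among the P rats, Cct7 passed (-0.23 log2, adjusted p = 0.0515). For NP.P minus NP, all 8 were positive, with a median of 0.10 log2 and the smallest adjusted p at Tcp1 (0.14 log2, adjusted p = 0.381), where 2.3% of all probe sets were called. For P.NP minus P, 6 were positive and 2 negative, with a median of 0.04 log2 and adjusted p of at least 0.749, where 0.231% of all were called. These contrasts share strains and are not independent of each other.

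The segment and background contrasts were also tested for interaction, that is, whether the segment acted differently on the backgrounds. None of the 8 genes was called, where 0.317% of all probe sets were. All 8 estimates were negative, with a median of -0.12 log2, and Tcp1 had the smallest p (-0.25 log2, 95% interval -0.44 to -0.05, adjusted p = 0.363, limma). For Cct7 the estimate was -0.16 log2 (95% interval -0.35 to 0.02, adjusted p = 0.588).

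In the F test over the 4 strains, which asks for any difference among them, 5 of the 8 genes were called, where 18.2% of all probe sets were. These were Cct7 (adjusted p = 0.00877), Cct6a (adjusted p = 0.0177), Cct5 (adjusted p = 0.0379), Cct4 (adjusted p = 0.0405) and Cct3 (adjusted p = 0.0669, limma). Cct2 (adjusted p = 0.173), Tcp1 (adjusted p = 0.205) and Cct8 (adjusted p = 0.214) were not. The second probe sets differed from these calls. That of Cct8 was called (adjusted p = 0.0918), and those of Cct5 (adjusted p = 0.120) and Cct6a (adjusted p = 0.161, limma) were not. The call count was 3 without NP.P replicate 4 and 2 without NP.P replicate 5, and the 2 that passed without NP.P replicate 5 were Cct7 and Cct6a. With quantile normalization the same 2 passed, and Cct3 (adjusted p = 0.247), Cct4 (adjusted p = 0.181) and Cct5 (adjusted p = 0.101) lost their calls; with the replicate number as a block, Cct3 lost its call (adjusted p = 0.104).

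Over the 20 arrays, the log2 signal of Cct7 was positively correlated with that of each of the other 7 subunits. Pearson's r was 0.91 with Cct6a, 0.86 with Cct4 and 0.83 with Cct2, each with the smallest p that 100000 permutations can give (1e-05, adjusted p = 0.000835 over all tested probe sets). It was 0.80 with Cct5 (adjusted p = 0.00169), 0.80 with Cct3 (adjusted p = 0.0021), 0.68 with Cct8 (adjusted p = 0.0114) and 0.61 with Tcp1 (adjusted p = 0.0348, permutation tests). Spearman's rho was 0.88 for Cct6a, 0.82 for Cct4, 0.80 for Cct2, 0.74 for Cct5 and Cct3, 0.66 for Cct8 and 0.56 for Tcp1, the last with an adjusted permutation p of 0.0653. Thus 7 of 7 were called by r, where 11.8% of all tested probe sets were called with a positive r. The median r of all tested probe sets with Cct7 was -0.06, and 5% had an r above 0.69. Without the 2 arrays farthest from the Cct7 median, NP.P replicates 4 and 5, r with Tcp1 was 0.38 (adjusted permutation p = 0.331) and the other 6 were called, with r between 0.65 and 0.88. With quantile normalization the call of Tcp1 was lost as well (r = 0.46, adjusted permutation p = 0.148), and the other 6 were called. All values share the arrays and the authors' scaling.

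The strains themselves differed in 7 of the genes between backgrounds, so the correlation was also taken within strains. With the strain means removed and permutation within strains, r with Cct7 was 0.76 for Cct2, 0.69 for Cct6a, 0.58 for Cct4, 0.53 for Tcp1, 0.50 for Cct5, 0.36 for Cct8 and 0.28 for Cct3. None of the 7 passed after adjustment, the smallest adjusted permutation p being 0.135 at Cct2. Of all 18624 probe sets, 2 passed with a positive r (0.0107%). All 7 remained positive. For Cct3, 19.7% of all tested probe sets had a higher r with Cct7 within strains, and for Cct2 0.279% had.

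**Figure D4:**
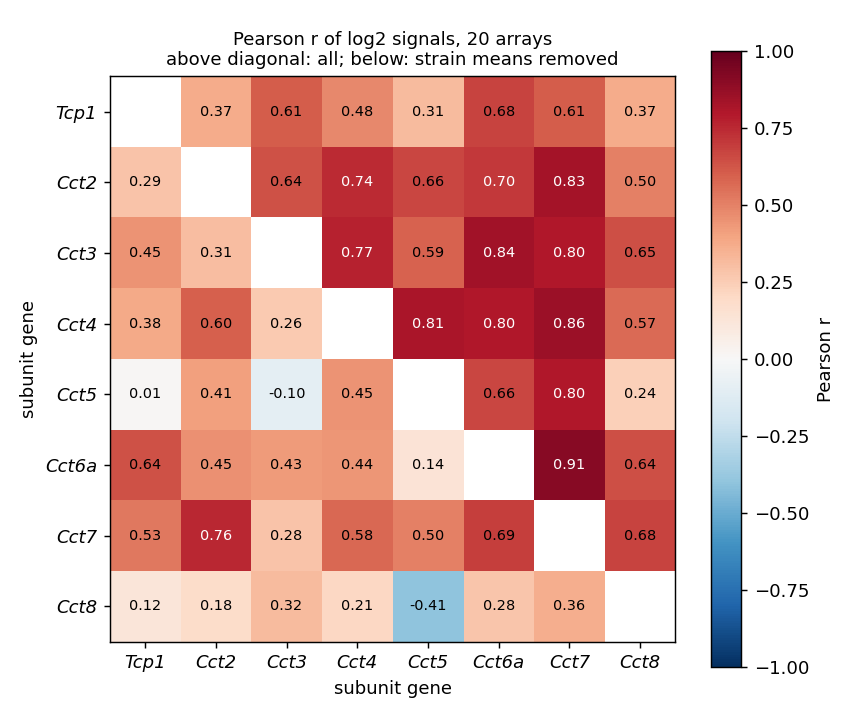
Pearson r of log2 signals for the 28 pairs of subunit genes, over the 20 arrays (above the diagonal) and with the strain means removed (below it). All 28 values above the diagonal are positive, from 0.24 to 0.91 with a median of 0.66, and below it they run from -0.41 to 0.76 with a median of 0.37.

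Across all 28 pairs of subunits, r was between 0.24 (Cct5 with Cct8) and 0.91 (Cct6a with Cct7), with a median of 0.66. Averaged over its 7 partners, r was highest for Cct7 (0.78), followed by Cct6a (0.75) and Cct4 (0.72), and lowest for Tcp1 (0.49) and Cct8 (0.52). With the strain means removed, the median of the 28 was 0.37, and 2 pairs were negative, Cct5 with Cct8 (-0.41) and Cct3 with Cct5 (-0.10). Cct7 again had the highest mean r with its partners (0.53). These values are descriptions, as the pairs share genes and arrays.

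At the probe sets that stand for the genes, Cct7 had the largest background difference (-0.22 log2), with Cct5 close to it (-0.21) and Tcp1 smallest (-0.06). The second probe set of Cct5 gave -0.27 log2. Set against the mean of its 7 partners, each centred on its own mean, Cct7 differed more between the backgrounds. Its centred log2 level was -0.11 ± 0.06 on the P background and 0.11 ± 0.11 on the NP background (SD, n = 10 each), while the mean of the partners was -0.07 ± 0.03 and 0.07 ± 0.08 on these backgrounds. The difference between Cct7 and its partners was -0.04 ± 0.03 on the P background and 0.04 ± 0.05 on the NP background. By segment it was 0.0017 ± 0.058 in NP.P and P rats and -0.0017 ± 0.056 in P.NP and NP rats. NP replicate 1 was the lowest NP-background array for Cct7 (-0.11) and for the mean of the partners (-0.04).

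The 5 genes whose signal was most like that of Cct7 over the 20 arrays were none of its partners. They were Hscb, a mitochondrial co-chaperone for iron-sulfur clusters (r = 0.94), Ebna1bp2, a nucleolar protein of ribosome assembly (0.94), Cyb5a, cytochrome b5 (0.93), Ube2c, a ubiquitin-conjugating enzyme of mitosis (0.92), and Psma5, a subunit of the proteasome (0.92). Cct6a was the 13th gene in that order, Cct4 the 109th and Tcp1 the 1126th. Klf1, an erythroid transcription factor, was the 14th (0.91), and Ccnb1, a cyclin of mitosis, the 15th (0.91).

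Markers of red cell precursors and of dividing cells were lower on the P background, as most chaperonin genes were. Of all tested probe sets, 11.3% were called lower on the P background and 11.1% higher. All 8 tested erythroid markers were called lower, with a median of -0.21 log2, from Klf1 (-0.49) to Tfrc, the transferrin receptor (-0.13). Their summed signal was between 158782 and 192528 on the P background and between 166627 and 221644 on the NP background. Of 10 cell division markers, 7 were called lower and none higher, with a median of -0.16 log2, and their summed signal was between 85220 and 97697 on the P background and between 90574 and 112359 on the NP background. The r with Cct7 over the arrays was 0.84 for the erythroid score and 0.80 for the cell division score, and 0.56 and 0.50 with the strain means removed. The actin and tubulin score had similar values, 0.86 over the arrays and 0.70 with the strain means removed. No other list reached such values in both forms. In the same order, r was 0.71 and 0.24 for granulocyte and 0.14 and 0.61 for osteoblast markers. It was 0.47 and 0.52 for cartilage markers and -0.23 and 0.66 for prefoldin and phosducin-like genes. Among granulocyte markers, Lcn2 differed by -3.79 log2 between backgrounds, while Camp (-0.09), S100a8 (0.11) and S100a9 (0.02) were not called. The part of these lists in the chaperonin difference was not tested. By segment, 2 erythroid markers (Fech and Hemgn) and 1 cell division marker (Mki67) were higher with the P segment. The adipocyte marker Adipoq was also higher (0.42 log2, adjusted p = 0.0980). The megakaryocyte markers Ppbp (-0.45 log2, adjusted p = 0.0272) and Gp9 (-0.32 log2, adjusted p = 0.0925, limma) were lower. The segment contrast called 0.886% of all tested probe sets and no chaperonin gene. Among the other marker lists, granulocyte had 1 of 4 lower (Lcn2, an iron-sequestering protein of neutrophils, -3.79 log2), megakaryocyte 3 of 5 lower and 1 higher, osteoblast 0 of 6 lower and 1 higher, and cartilage, osteoclast and skeletal muscle had none called between backgrounds. B lymphoid had 1 of 2 higher, macrophage 1 lower and 1 higher of 4, and adipocyte 2 lower and 1 higher of 4.

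**Figure D5:**
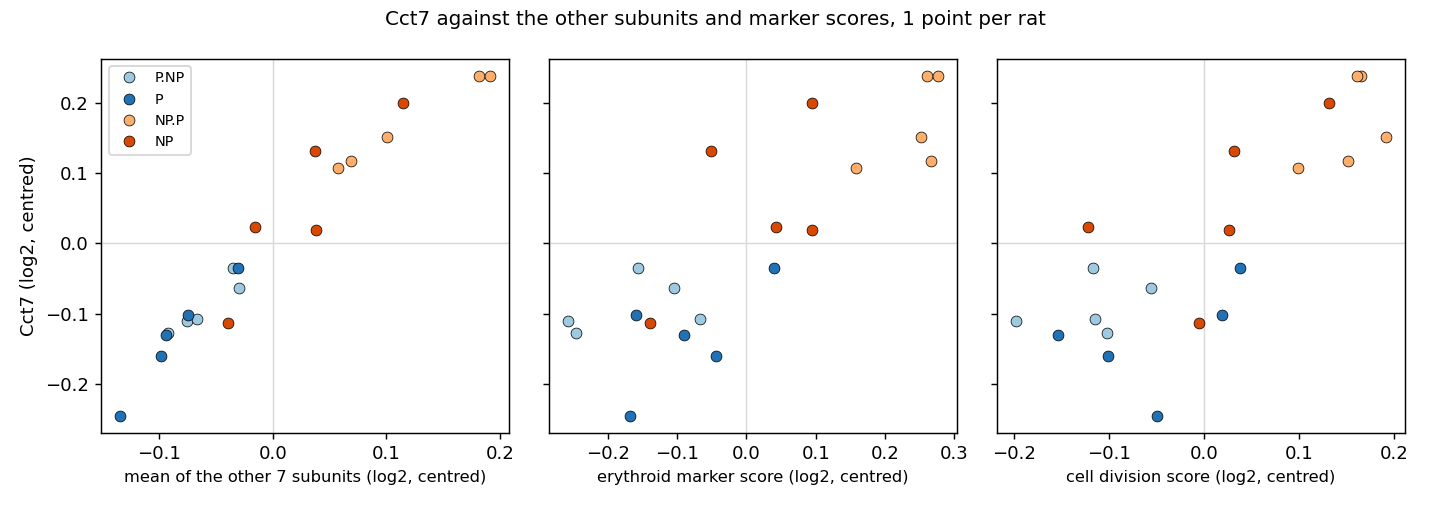
Centred log2 level of Cct7 (vertical axis) against the mean of the 7 partner subunits, the erythroid marker score and the cell division score (horizontal axes, centred log2), with 1 point per rat coloured by strain. The r over the 20 points is 0.97 for the partners, 0.84 for the erythroid score and 0.80 for the cell division score, and the NP.P rats are at the upper right in all panels.

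The list of actin and tubulin genes holds the main substrates of the chaperonin and 2 actin-related genes, and its median background difference was -0.19 log2. Beside 11.3% of all tested probe sets, 5 of its 9 tested genes were lower on the P background and none was higher. All 5 were tubulins: Tubb5 (-0.37 log2, adjusted p = 6.98e-06), Tubb6 (-0.37, adjusted p = 0.0259), Tubb4b (-0.22, adjusted p = 0.00615), Tuba4a (-0.20, adjusted p = 0.0672) and Tubg1, of the gamma-tubulin ring (-0.19, adjusted p = 0.0148, limma). Actg1, the only actin gene of the list that was tested (-0.07, adjusted p = 0.409), and Actr2, an actin-related protein of the Arp2/3 complex (-0.05, adjusted p = 0.611), did not pass. Tubb2a (0.12, adjusted p = 0.205) and Tubb2b (0.32, adjusted p = 0.166) had positive estimates and did not pass.

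For the proteins that work beside the chaperonin, the counts were near the shares of all tested probe sets (11.3% lower and 11.1% higher on the P background). Of 7 tested prefoldin and phosducin-like genes, 1 was lower on the P background (Pfdn4, -0.20 log2, adjusted p = 0.00602) and 1 was higher (Pfdn6, 0.60 log2, adjusted p = 8.58e-07), and the median was 0.01 log2. Of 5 tubulin folding cofactors, Tbca, which holds beta-tubulin, was lower (-0.18 log2, adjusted p = 0.00859, limma), and the other 4 did not pass, with a median of -0.04 log2 over the list.

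The lists of other chaperone systems were small, so their counts are given as descriptions, beside the 11.3% of all tested probe sets called lower. In the cytosolic Hsp70 and Hsp90 system, 3 of 11 tested genes were lower on the P background, namely Hsph1, an exchange factor of Hsp70 (-0.17 log2, adjusted p = 0.0760), St13, an Hsp70 cochaperone (-0.14, adjusted p = 0.0300), and Cdc37, which brings kinases to Hsp90 (-0.14, adjusted p = 0.0436, limma). None was higher, and the estimates of Hspa4, an exchange factor of Hsp70 (0.27 log2, adjusted p = 0.254), and Dnaja1, an Hsp40 cochaperone (0.15 log2, adjusted p = 0.121), were positive and did not pass. Hsf1, the heat shock transcription factor, had -0.08 log2 (adjusted p = 0.614). The median over the list was -0.08 log2. In the mitochondrial chaperone list, 2 of 4 were lower, Hspe1, the lid of the mitochondrial chaperonin (-0.14, adjusted p = 0.0327), and Trap1, the mitochondrial Hsp90 (-0.16, adjusted p = 0.0668). Hspd1, which forms the ring under that lid, had -0.07 log2 (adjusted p = 0.281). Mkks, the only tested chaperonin-like gene of the Bardet-Biedl group, had -0.01 log2 (adjusted p = 0.930). No gene of these lists was called for the segment.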

How the data were processed

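Femur RNA of 20 rats, 5 per strain, was hybridized to Affymetrix Rat Genome arrays, with 1 array per rat. Strains were taken from the sample titles. The authors deposited linear intensities from the MAS5 algorithm, brought to a common trimmed mean per array; the robust multichip average values of the paper's own tests were not used here. Gene symbols came from the platform annotation, and of 31042 probe sets other than the 57 controls 20826 carried 1 symbol, 436 several and 9780 none. Signals under 1 (190 values) were set to 1 and taken to log2. Probe sets whose mean log2 value reached the 40th percentile, equal to a signal of 169.7, numbered 18625, and these entered 1 fit of 4 strain means in limma (version 3.58.1, R version 4.3.3; residual degrees of freedom 16, prior 2.78), with Benjamini-Hochberg adjustment over all tested probe sets and a false discovery rate of 10%. The background effect was the mean of P minus NP.P and P.NP minus NP, and the segment effect the mean of NP.P minus NP and P minus P.NP.

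Correlations with Cct7 were tested with 100000 permutations over all 18624 other tested probe sets, and again within strains. The region was taken by gene order in GRCr8 between the outermost genes of the study's list. Named genes were the 8 subunits, the 5 genes most like Cct7, the 5 tested genes on each side of it and the genes of the lists that passed; other genes were named after their values were seen. Members and lists were chosen with earlier results of these data known. Alternatives were the replicate number as a block, leaving out each array, averaging all probe sets of a gene, fitting 2 strains alone, the methods' t-test, a mean-variance trend, no filter, quantile normalization and adding the 10th percentile of all signals (21.7) before log2. The number of arrays limits the precision. Scripts were tested on simulated data of 18625 probe sets. A background difference of -0.2 log2 was recovered in 45 of 100 and one of -0.5 log2 in 94 of 100. These were drawn from the brighter probe sets, and no others were changed. Replicate labels name separate samples, and p-values measure the spread between them.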

Additional observations from a re-analysis of the deposited data

Results flagged for a closer look

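Of 44 groups of 5 arrays looked at, 11 probe sets in 4 strains, 3 held an array that stood apart from the other 4 by Dixon's criterion, which chance alone flags in about 1 in 20 groups. For Cct2, NP replicate 4 had a signal of 10902.6, above the other NP rats at 9103 to 9551. For the second probe set of Cct5, P.NP replicate 1 had 5429, below the other P.NP rats at 6874 to 7414, while at the first probe set the same rat had 15492 and lay within the other P.NP rats. For the second probe set of Cct6a, NP replicate 1 had 1028, below the other NP rats at 1309 to 1361, and this rat was also the lowest NP rat for Cct7 and for the first probe set of Cct6a. No chaperonin gene had a difference between the backgrounds in the effect of the segment that passed the test of interaction.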

How the results depend on the processing

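The background difference kept its direction for all 8 genes in the fits that left out 1 rat and in those with the replicate block, the mean of a gene's probe sets, a mean-variance trend, no filter, quantile normalization and an offset before log2, and in these the count of genes called lower stayed within 1.5 times the 7 found. For Cct7 it ran from -0.24 to -0.20 log2 over the fits that each left out 1 rat, with an adjusted p of at most 0.00499 (limma). Leaving out each rat in turn gave 6 to 7 called genes for the background, 2 to 6 for the F test over strains, 0 to 1 for P minus NP (1, Cct7, without NP replicate 1), and 0 for the segment, for NP.P minus NP, for P.NP minus P and for the interaction. Fits of 2 strains alone and the methods' t-test compare 2 strains at a time, so they did not estimate the background difference. In the correlations with Cct7, 6 to 7 of 7 subunits were called when 1 rat was left out, and Tcp1 was lost without NP.P replicate 5 (adjusted permutation p = 0.117) and with quantile normalization (adjusted permutation p = 0.148). Quantile normalization left 2 genes in the F test, Cct7 and Cct6a, against 5. With a mean-variance trend 1 gene, Cct7, passed for P minus NP (adjusted p = 0.0754), against 0. With deviations from the strain means, 0 of 7 correlations with Cct7 passed, against 7. The cause of these changes was not tested. Without a filter, Cct8 was no longer called between backgrounds (adjusted p = 0.135) nor Cct3 in the F test (adjusted p = 0.142). The methods' t-test gave 1 member for NP.P minus NP and 2 for P.NP minus P at an unadjusted p under 0.05. Over all probe sets, it gave 1997 for NP.P minus NP and 1374 for P.NP minus P at that level. After Benjamini-Hochberg at 10%, 0 members passed in both, beside 10 of all probe sets for NP.P minus NP and 0 for P.NP minus P. Same-numbered arrays of different strains deviated with a median correlation of 0.02 (30 pairs, -0.09 to 0.33, 5 over 0.1). For other-numbered arrays the median was -0.004 (120 pairs, -0.33 to 0.25, 11 over 0.1). These values do not settle whether the replicate numbers pair the rats. With the replicate block, 4 genes passed the F test, with Cct3 lost (adjusted p = 0.104), and 7 passed for the background. In the simulation with 5 rats per strain, 45 of 100 probe sets changed by -0.2 log2 between backgrounds were recovered. Few of the 18625 probe sets were changed there, whereas 22.5% were called in the data. The adjustment depends on that share, so this rate is not the share recovered in the data. Small differences can still be missed.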
